A study of Mus musculus with 18 samples.

Results

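Cholecystokinin is a peptide of gut and brain that signals fullness after a meal, and Cck, Cckar and Cckbr encode the peptide and its 2 receptors. The peptide is cut from a larger precursor, sulfated on a tyrosine and amidated before release. Its sulfated form binds both receptors, while gastrin and the unsulfated peptide act mainly on the receptor encoded by Cckbr. Both receptors couple to Gq proteins, which raise calcium inside the cell through phospholipase C. The 3 genes were picked by name and were followed in all 18 libraries. They are 3 of 23235 gene symbols listed, each has a single entry, on mouse chromosomes 9 (Cck), 5 (Cckar) and 7 (Cckbr), and all 3 passed the filter on low values.

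RNA was sequenced from the arcuate nucleus, a hypothalamic region that governs reproduction and feeding, dissected from female C57/BL mice that had all been ovariectomized. KIKO mice, ERKO mice, which lack the estrogen receptor ERα encoded by Esr1, and wild-type (WT) mice each received estradiol benzoate (E2) or oil. The E2 dose was 250 ng on the fifth day after surgery (day 5) and 1500 ng on day 6. Tissue was collected 24 h after the last injection, following a fast of 1 h. The 6 groups were therefore KIKO E2, KIKO oil, ERKO E2, ERKO oil, WT E2 and WT oil, with 3 libraries each (n = 3 throughout). As the name is generally used, KIKO denotes a mutant ERα, knocked in beside a null allele, that does not recognize the DNA motifs termed estrogen response elements (EREs). The labels do not state how the alleles were built, or whether a library came from 1 animal or a pool, so p values measure the spread between libraries. The question posed by the series is which responses to E2 need ERα, and which need its binding to EREs.

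Levels are given in FPKM, fragments scaled to transcript length and to the sequenced total, which allows levels of different genes to be compared. Changes are differences of log2(FPKM + 1) ± SE from limma, a linear model fitted to all 14774 tested genes, with p values adjusted by Benjamini-Hochberg over those genes and a threshold of 0.05. The width of the deposited confidence bounds implied 64 to 1126 fragments per library for Cck, 91 to 401 for Cckar and 95 to 313 for Cckbr. These fragment numbers are inferred and cover counting error only.

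Esr1 stood at 3.05, 3.89 and 2.85 FPKM in KIKO E2, at 2.91, 4.08 and 3.94 FPKM in KIKO oil, at 1.91, 2.34 and 0.212 FPKM in ERKO E2, at 1.62, 2.39 and 2.27 FPKM in ERKO oil, at 3.45, 5.24 and 5.88 FPKM in WT E2 and at 5.38, 6.92 and 11.9 FPKM in WT oil. It was lowest in the ERKO groups. Under oil, the log2 change of ERKO against WT was −1.49 ± 0.32 (limma adjusted p = 0.0367), a call lost when any 1 of those 6 libraries was left out, with a pseudocount of 0.1 in place of 1 (adjusted p = 0.0905) and with the replicate number as a block (0.0544). In that comparison 0.684% of tested genes were called lower. Whether the Esr1 reads fall in the part altered in the mutants was not given, so this level is a limited check of genotype. All 8 arcuate markers examined, among them Agrp, Pomc and Kiss1, were detected in each group, with summed levels from 2407 to 5682 FPKM. The library ERKO E2 3 stood apart, with correlations of 0.919 to 0.954 to the others, against 0.963 to 0.995 among the other 17 libraries, and with 13107 FPKM of the vasopressin gene Avp, so the changes of Cck, Cckar and Cckbr that use it are also given without it.

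Because the study asks about EREs, promoter sequences of the genes were read from RefSeq (build GRCm38.p6), from 250 bases before to 50 bases after the annotated start. A sequence was found for 2 of the 3 genes, Cck and Cckbr. The Cck window is chr9:121495645-121495944 on the minus strand, and the Cckbr window is chr7:105425481-105425780 on the plus strand. Both are shown 5′ to 3′ in the direction of the gene, with motif matches in capitals.
Cck: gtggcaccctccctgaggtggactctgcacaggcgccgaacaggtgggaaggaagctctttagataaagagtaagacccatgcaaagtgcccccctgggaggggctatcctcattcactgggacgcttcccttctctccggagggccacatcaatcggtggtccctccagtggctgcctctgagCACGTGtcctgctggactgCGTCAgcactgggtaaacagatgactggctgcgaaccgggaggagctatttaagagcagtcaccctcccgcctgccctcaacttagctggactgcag
Cckbr: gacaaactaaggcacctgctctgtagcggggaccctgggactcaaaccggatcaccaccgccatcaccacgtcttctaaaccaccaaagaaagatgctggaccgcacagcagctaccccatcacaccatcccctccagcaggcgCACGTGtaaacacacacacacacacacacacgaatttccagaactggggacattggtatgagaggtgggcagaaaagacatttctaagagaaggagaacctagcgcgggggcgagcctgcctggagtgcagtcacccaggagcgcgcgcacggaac
All motifs were searched on both strands. Neither window held the full ERE (GGTCA and TGACC with any 3 bases between) or a single arm of it (GGTCA, which the full ERE contains), which stood in 0.0666% and 40.2% of 27025 promoter windows of the same length. TGACG is likewise contained in the full cAMP response element. In the Cck window the capitals mark the E-box CACGTG, 66 to 61 bases before the start, and the cAMP response core TGACG, read on the opposite strand 47 to 43 bases before the start. The Cckbr window held CACGTG 106 to 101 bases before the start. CACGTG was found in 7.24% of windows and TGACG in 21.0%. The full cAMP response element (TGACGTCA), the AP-1 motif (TGANTCA) and the GC box (GGGCGG), present in 1.88%, 7.93% and 35.9% of windows, were not matched in either gene. A match of letters is a description of these windows and not evidence of binding.

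Cckar, the receptor through which cholecystokinin acts on satiety pathways, was the member whose expression differed between groups. In WT mice it was higher after E2 than after oil, and after E2 it was lower in both mutants than in WT. In WT E2 libraries Cckar stood at 8.71, 9.24 and 8.81 FPKM, and in WT oil libraries at 5.19, 4.99 and 4.40 FPKM. The WT E2 libraries lay above those of every other group, where the highest value was the 5.19 FPKM of WT oil 1. In WT alone, 9.37% of tested genes had all E2 libraries above all oil libraries. The share of genes with WT E2 above every other group was not computed. The means were 8.92 ± 0.284 FPKM in WT E2 and 4.86 ± 0.414 FPKM in WT oil (SD), a ratio of 1.84. The implied fragments were 376, 370 and 401 in WT E2 against 191, 225 and 192 in WT oil. They are inferred from the same FPKM values and their bounds and are not scaled to the sequenced total. They are therefore no separate support for the difference.

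The WT rise of Cckar passed the threshold (log2 change 0.76 ± 0.16, limma adjusted p = 0.0333). In this comparison 0.785% of tested genes passed and 0.602% passed as higher, and Cckar ranked 97 by p. The size of the change was stable, from 0.70 to 0.80 when any WT library was left out, but the call was lost in each of those 6 fits. The limma adjusted p was 0.101, 0.134 and 0.103 without WT E2 1, 2 or 3 and 0.0770, 0.0859 and 0.0920 without WT oil 1, 2 or 3. It was 0.0141 without ERKO E2 3 in the fit, and 0.0537 with the replicate number as a block.

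**Figure D1:**
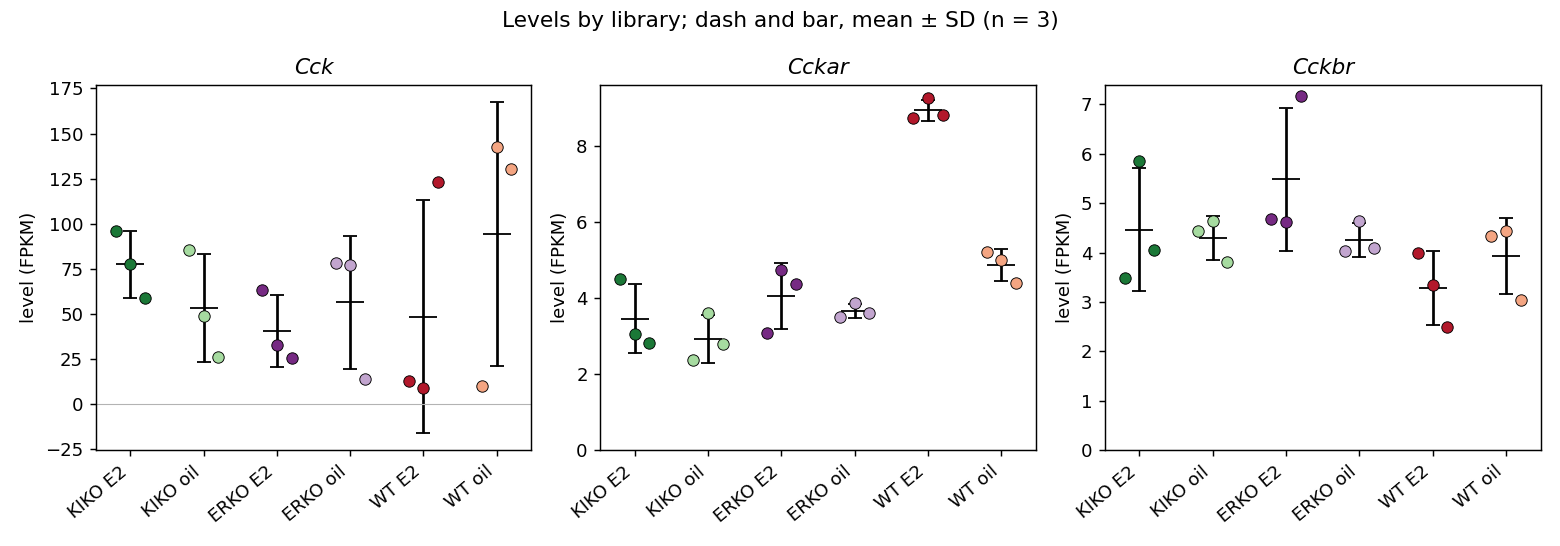
Level (FPKM) of Cck, Cckar and Cckbr in each library, 3 per group; points are libraries, dashes and bars the mean ± SD. Cckar lies between 8.71 and 9.24 FPKM in WT E2 and at most at 5.19 FPKM elsewhere, Cck ranges from 9.14 to 143 FPKM with wide spread inside groups, and Cckbr stays between 2.50 and 7.16 FPKM.

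In KIKO mice Cckar stood at 4.50, 3.05 and 2.81 FPKM after E2 and at 2.36, 3.60 and 2.78 FPKM after oil. The KIKO groups overlapped, and the change was 0.18 ± 0.16 (95% interval −0.16 to 0.52, limma adjusted p = 1), in a comparison where 0.00677% of genes passed. In ERKO mice it stood at 3.07, 4.72 and 4.36 FPKM after E2 and at 3.48, 3.86 and 3.61 FPKM after oil. The ERKO groups overlapped as well, with a change of 0.10 ± 0.16 (95% interval −0.23 to 0.44, limma adjusted p = 0.730), or 0.05 without ERKO E2 3. No gene passed in the ERKO comparison (0.0% of tested genes), while 1068 (7.23%) had an unadjusted limma p under 0.05.

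A rise in WT and no call in the mutants does not by itself show that the responses differ, so the responses were compared directly. The Cckar response to E2 was smaller by 0.58 ± 0.23 in KIKO than in WT (difference −0.58, 95% interval −1.06 to −0.10) and by 0.66 ± 0.23 in ERKO than in WT (difference −0.66, 95% interval −1.14 to −0.18). Neither difference passed over all genes (limma adjusted p = 0.850 and 0.267). Genes passing these tests made up 0.135% for KIKO and 0.278% for ERKO. Without ERKO E2 3 the ERKO difference was −0.71. The differences kept their sign in all 20 and 19 alternatives, from −0.74 to −0.46 and from −0.76 to −0.51 over the fits that left out a library.

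Under E2 Cckar was lower in both mutants than in WT. KIKO E2 libraries averaged 3.45 ± 0.911 FPKM against 8.92 ± 0.284 FPKM in WT E2 (SD), a log2 change of −1.17 ± 0.16 (limma adjusted p = 0.00112). This call held in all 14 alternatives, with adjusted p from 0.000365 to 0.0115. ERKO E2 libraries averaged 4.05 ± 0.869 FPKM against the same WT E2 value, a log2 change of −0.99 ± 0.16 (limma adjusted p = 0.00367) and −1.04 without ERKO E2 3. That call held in 12 of 13 alternatives and was lost when ERKO E2 and WT E2 were fitted alone (adjusted p = 0.236). Of all tested genes, 0.948% were called in the KIKO and 1.3% in the ERKO comparison, with 0.745% and 1.03% called lower. All WT E2 libraries lay above all mutant E2 libraries, as was so for 10.5% and 6.29% of genes. The 2 comparisons share the WT E2 libraries.

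Under oil, mutant and WT libraries of Cckar did not overlap, but no difference passed. KIKO oil libraries averaged 2.91 ± 0.633 FPKM and ERKO oil libraries 3.65 ± 0.193 FPKM, against 4.86 ± 0.414 FPKM in WT oil (SD). No library of either mutant reached the lowest WT oil library, at 4.40 FPKM, and 9.35% of all tested genes in the KIKO and 18.4% in the ERKO comparison were apart in this direction. The changes were −0.59 ± 0.16 for KIKO against WT and −0.33 ± 0.16 for ERKO against WT, and they did not pass (limma adjusted p = 0.205 and 0.239, where 0.0135% and 1.43% of genes passed). Without ERKO E2 3 in the fit, the adjusted p for KIKO was 0.0605. For KIKO the gap to WT of −1.17 under E2 is thus the sum of −0.59 under oil and −0.58 in the response. KIKO and ERKO overlapped in Cckar under both treatments, with changes of −0.18 ± 0.16 under E2 and −0.26 ± 0.16 under oil (limma adjusted p = 0.788 and 0.998, with 0.0135% and 0.0% of genes passing). The change under E2 was −0.13 without ERKO E2 3. Under oil, where no gene passed, 340 genes (2.3%) had an unadjusted limma p under 0.05.

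The order of the Cckar group means was WT E2, WT oil, ERKO E2, ERKO oil, KIKO E2 and KIKO oil. Only the first step, between WT E2 and WT oil, separated neighbours without overlap between libraries. Differences between groups made up 88.9% of the variance of Cckar over the 18 libraries on the log2 scale, and its spread within groups (SD 0.19) was close to the median of all tested genes (0.20). In tissue samples of this kind, fewer cells of a type and less RNA per cell cannot be told apart. Markers of other cells and regions were summed per library. The 5 markers of the ventromedial nucleus, a neighbour of the arcuate nucleus, were all detected in every group, and they summed to 37.5 to 64.1 FPKM in KIKO E2, 36.0 to 50.6 FPKM in KIKO oil, 35.4 to 53.7 FPKM in ERKO E2, 36.2 to 40.2 FPKM in ERKO oil, 19.9 to 38.7 FPKM in WT E2 and 38.0 to 44.4 FPKM in WT oil. The WT E2 range overlapped that of each other group only through its highest library, since the WT E2 median was 30.4 FPKM. Over the 18 libraries this ventromedial sum had a Pearson r of −0.662 with Cckar, on log2 values. The sum of pan-neuronal markers had an r of −0.546 and that of endothelial markers 0.534. The other marker lists lay between −0.406 (pituitary) and 0.293 (astrocytes). The 8 arcuate markers summed to 2937 to 3461 FPKM in WT E2 and 4360 to 5143 FPKM in WT oil, without overlap. Members of that list went both ways, since Kiss1, the kisspeptin gene, stood at 34.8, 58.3 and 20.9 FPKM in WT E2 and at 520, 360 and 419 FPKM in WT oil, while Agrp, the agouti-related peptide gene, stood at 337, 266 and 255 FPKM in WT E2 and at 174, 165 and 198 FPKM in WT oil. The 5 astrocyte markers summed to 552 to 596 FPKM in WT E2 and 640 to 768 FPKM in WT oil. The 5 endothelial markers summed to 56.7 to 62.0 FPKM in WT E2 and 39.0 to 55.8 FPKM in WT oil. In the mutants the endothelial sums were 39.9 to 50.3 FPKM in KIKO E2 and 35.5 to 58.2 FPKM in ERKO E2. Under oil they were 28.6 to 47.6 FPKM in KIKO and 35.9 to 47.3 FPKM in ERKO. The part of such tissue differences in the Cckar result was not tested.

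The 4 genes whose levels followed Cckar most closely over the 18 libraries, by Pearson correlation of log2(FPKM + 1), were Lrrc38 (r = 0.908), Tmem215 (0.903), the collagen gene Col24a1 (0.886) and Galntl4 (0.886). Spearman correlations were lower, between 0.666 and 0.744. The points share libraries and groups. Because these genes were picked for a profile like that of Cckar in the same libraries, their levels are given as a description, with no test. Lrrc38, which encodes an auxiliary subunit of BK potassium channels, stood at 3.51, 5.07 and 3.58 FPKM in WT E2 and at 1.08, 0.997 and 0.823 FPKM in WT oil, and at most at 0.363 FPKM in the mutants. Col24a1 was at 5.82, 5.85 and 5.10 FPKM in WT E2 and at 0.544, 0.496 and 0.701 FPKM in WT oil, and at most at 0.508 FPKM in the mutants. Both Lrrc38 and Col24a1 passed the filter on low values through the WT E2 libraries alone.

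Tmem215 was at 4.78, 7.36 and 7.34 FPKM in WT E2 and at 1.75, 3.56 and 2.20 FPKM in WT oil, and between 0.582 and 2.14 FPKM in the mutants. Galntl4 was at 15.0, 20.3 and 17.1 FPKM in WT E2 and at 12.2, 9.56 and 11.8 FPKM in WT oil, and between 6.85 and 12.5 FPKM in the mutants, with the highest of these in ERKO E2 3.

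**Figure D2:**
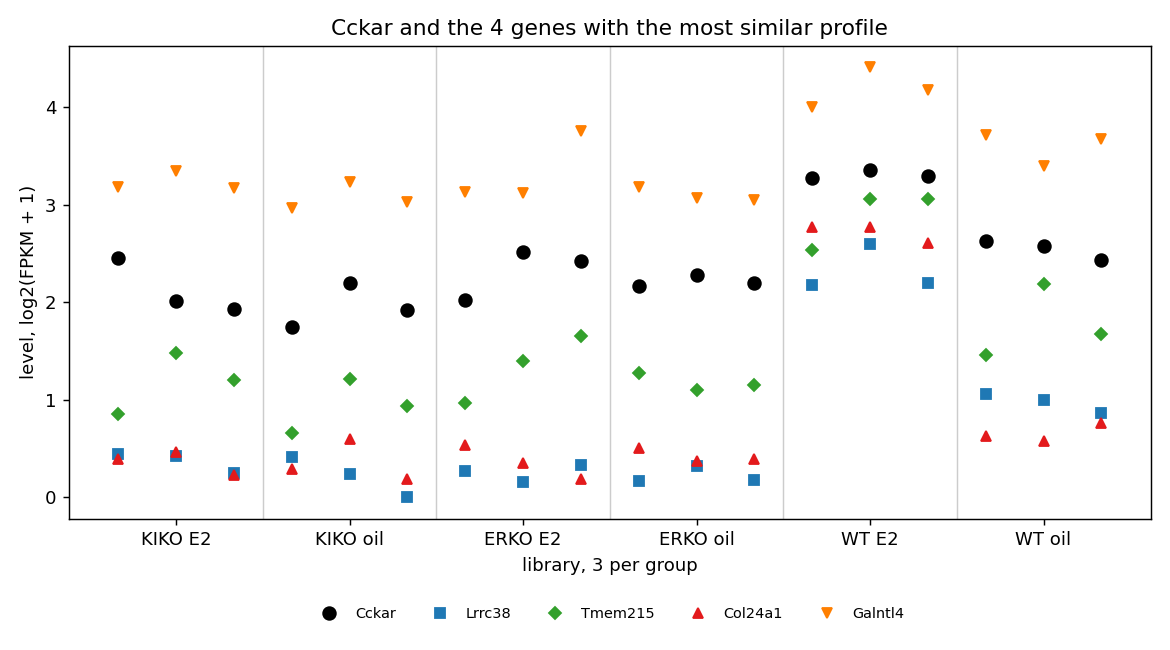
Level on the log2(FPKM + 1) scale of Cckar and of the 4 genes most correlated with it, for each library in its group (3 per group). For Cckar, Lrrc38, Tmem215, Col24a1 and Galntl4 the 3 WT E2 libraries lie above the other 15.

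Cck, the gene of the peptide itself, was the most abundant of the 3 and by far the most variable. Its levels ran from 9.14 FPKM in WT E2 2 to 143 FPKM in WT oil 2, a ratio of 15.6, and most of that range was seen inside single groups. KIKO E2 libraries held 96.1, 77.5 and 58.7 FPKM and KIKO oil libraries 85.3, 48.9 and 26.1 FPKM. ERKO E2 libraries held 63.1, 32.7 and 25.7 FPKM and ERKO oil libraries 78.4, 76.9 and 14.0 FPKM. WT E2 libraries held 13.0, 9.14 and 123 FPKM and WT oil libraries 10.1, 143 and 131 FPKM. The groups overlapped in all 9 pairwise comparisons, in which 5.5% (KIKO against ERKO under E2) to 39.3% (ERKO against WT under oil) of tested genes were apart. The highest library held 13.5 times the Cck of the lowest in WT E2 and 14.1 times in WT oil.

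No comparison of Cck passed the threshold. After E2 against oil, the change was 0.65 ± 1.00 in KIKO, −0.23 ± 1.00 in ERKO and −1.19 ± 1.00 in WT (limma adjusted p = 1, 0.912 and 0.783). The 95% interval of the WT change reached from −3.31 to 0.92, which spans both directions. Against WT, Cck differed by −0.28 in KIKO and −0.39 in ERKO under oil, and by 1.56 in KIKO and 0.57 in ERKO under E2, each ± 1.00 (limma adjusted p from 0.718 to 0.946). KIKO against ERKO gave 0.99 under E2 and 0.11 under oil. Without ERKO E2 3, the E2 change in ERKO was 0.04, and under E2 the difference of ERKO from WT was 0.84 and that of KIKO from ERKO 0.73. The E2 response differed from that of WT by 1.85 ± 1.41 in KIKO and 0.96 ± 1.41 in ERKO (limma adjusted p = 0.999 and 0.75), the ERKO value being 1.23 without ERKO E2 3. Of the variance of Cck on the log2 scale, 15.8% lay between groups. Its SD within groups, 1.38, was larger than that of 99.8% of tested genes.

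Cck moved with pituitary markers from library to library. The pituitary list had 7 markers, all of them listed, and their summed levels were 335, 255 and 144 FPKM in KIKO E2, 219, 88.9 and 44.1 FPKM in KIKO oil, 204, 24.5 and 17.8 FPKM in ERKO E2, 260, 220 and 2.33 FPKM in ERKO oil, 3.44, 2.79 and 357 FPKM in WT E2 and 3.31, 228 and 361 FPKM in WT oil. The 8 libraries with a sum under 100 FPKM were the same 8 in which Cck was under 50 FPKM. These bounds were not fixed in advance, so the match is a description of these libraries. Without bounds, the Pearson r of the sum with Cck over the 18 libraries was 0.971, on log2 values. Most of the high sums came from Cga, the shared subunit of the glycoprotein hormones, which was listed at 0 in WT E2 1, WT oil 1 and ERKO oil 3, where Cck was at 13.0, 10.1 and 14.0 FPKM. Cga was at 0.424 FPKM in WT E2 2, the library with the least Cck, and at 307 FPKM in WT oil 3. Tshb, the thyrotropin subunit, reached 41.9 FPKM in KIKO oil 1. The genes of prolactin and growth hormone were nearly absent, since Prl was listed at 0 in 17 libraries and Gh in 16. The part of pituitary tissue in the Cck levels was not tested.

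**Figure D3:**
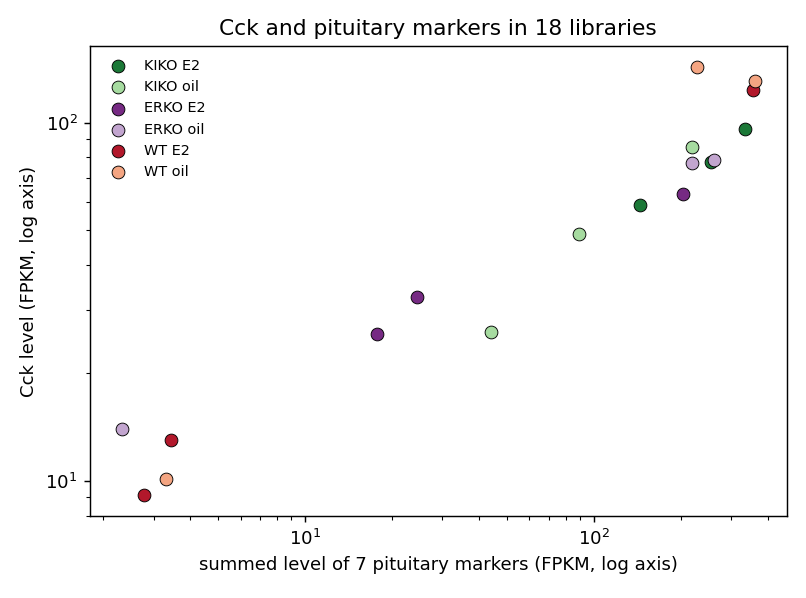
Cck level against the summed level of 7 pituitary markers, both in FPKM on log axes, with 1 point per library coloured by group. The libraries run along a single rising band from 2.33 FPKM of markers with 14.0 FPKM of Cck to 361 FPKM of markers with 131 FPKM of Cck, and the 3 libraries of most groups lie far apart on it.

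The 4 genes most correlated with Cck were Ces1d, a carboxylesterase (r = 0.981), Pitx1, a transcription factor of the pituitary lineage (0.968), and Lum and Dcn, proteoglycans of connective tissue (0.965 for each). Pitx1 stood at 19.3 FPKM in WT oil 2 and was listed at 0 in WT oil 1, next to 143 and 10.1 FPKM of Cck. The 6 cortex and hippocampus markers, of tissues rich in Cck, summed to 2.35 to 13.8 FPKM, with the highest value in KIKO E2 2, where Cck was at 77.5 FPKM.

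Cckbr, the receptor of gastrin and of unsulfated as well as sulfated cholecystokinin, was detected at low levels in every library. It stood at 3.49, 5.86 and 4.05 FPKM in KIKO E2 and at 4.43, 4.65 and 3.80 FPKM in KIKO oil. In ERKO E2 it stood at 4.68, 4.61 and 7.16 FPKM and in ERKO oil at 4.03, 4.64 and 4.09 FPKM. In WT E2 it stood at 3.99, 3.35 and 2.50 FPKM and in WT oil at 4.32, 4.43 and 3.04 FPKM. The highest library was ERKO E2 3 and the lowest WT E2 3, a ratio of 2.87. The order of the group means was ERKO E2, KIKO E2, KIKO oil, ERKO oil, WT oil and WT E2, and no neighbouring groups in this order were apart.

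E2 against oil changed Cckbr by 0.03 ± 0.19 in KIKO, 0.28 ± 0.19 in ERKO and −0.21 ± 0.19 in WT, and none passed (limma adjusted p = 1, 0.481 and 0.810). The largest difference was that of ERKO E2 against WT E2, 5.48 ± 1.45 against 3.28 ± 0.751 FPKM (SD), where all ERKO E2 libraries were above all WT E2 libraries. At 0.59 ± 0.19 (95% interval 0.19 to 1.00) it did not pass over all genes (limma adjusted p = 0.192), and 4.7% of tested genes were apart in this direction. Without ERKO E2 3 it was 0.41 (adjusted p = 0.169). KIKO E2 overlapped WT E2 and differed by 0.35 ± 0.19 (limma adjusted p = 0.644). Under oil, Cckbr differed from WT by 0.11 in KIKO and 0.10 in ERKO, each ± 0.19. KIKO against ERKO gave −0.25 under E2 and 0.01 under oil. The value under E2 was −0.07 without ERKO E2 3, −0.12 without KIKO E2 1 and −0.42 without KIKO E2 2. The responses differed from that of WT by 0.23 ± 0.27 in KIKO and 0.49 ± 0.27 in ERKO (limma adjusted p = 0.999 and 0.442). Without ERKO E2 3, the ERKO values were 0.11 for the change after E2 and 0.31 for the difference of responses.

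The genes closest to Cckbr in profile were Nrgn, a calmodulin-binding protein of neurons (r = 0.871), and 4933439C10Rik (0.870). Next came Cntn6, a neuronal contactin (0.867), and Matk, a kinase (0.857). By Spearman the correlations were lower, between 0.653 and 0.779. Each of these genes, like Cckbr, was highest in ERKO E2 3, at 142, 39.9, 11.4 and 119 FPKM in the order named. The correlations were not computed without that library. Because the genes were picked for this likeness, it is a description only. The 5 pan-neuronal markers summed to 737 to 760 FPKM in KIKO E2, 787 to 816 FPKM in KIKO oil, 719 to 885 FPKM in ERKO E2, 767 to 811 FPKM in ERKO oil, 648 to 724 FPKM in WT E2 and 678 to 728 FPKM in WT oil. Under E2, the ERKO range enclosed that of KIKO and overlapped that of WT only between 719 and 724 FPKM. The medians were 796 FPKM in ERKO E2 and 682 FPKM in WT E2, and the KIKO and WT ranges did not overlap. Over the 18 libraries the pan-neuronal sum had a Pearson r of 0.723 with Cckbr, on log2 values. That of the ventromedial markers had an r of 0.683. The part of either set of markers in the Cckbr levels was not tested.

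**Figure D4:**
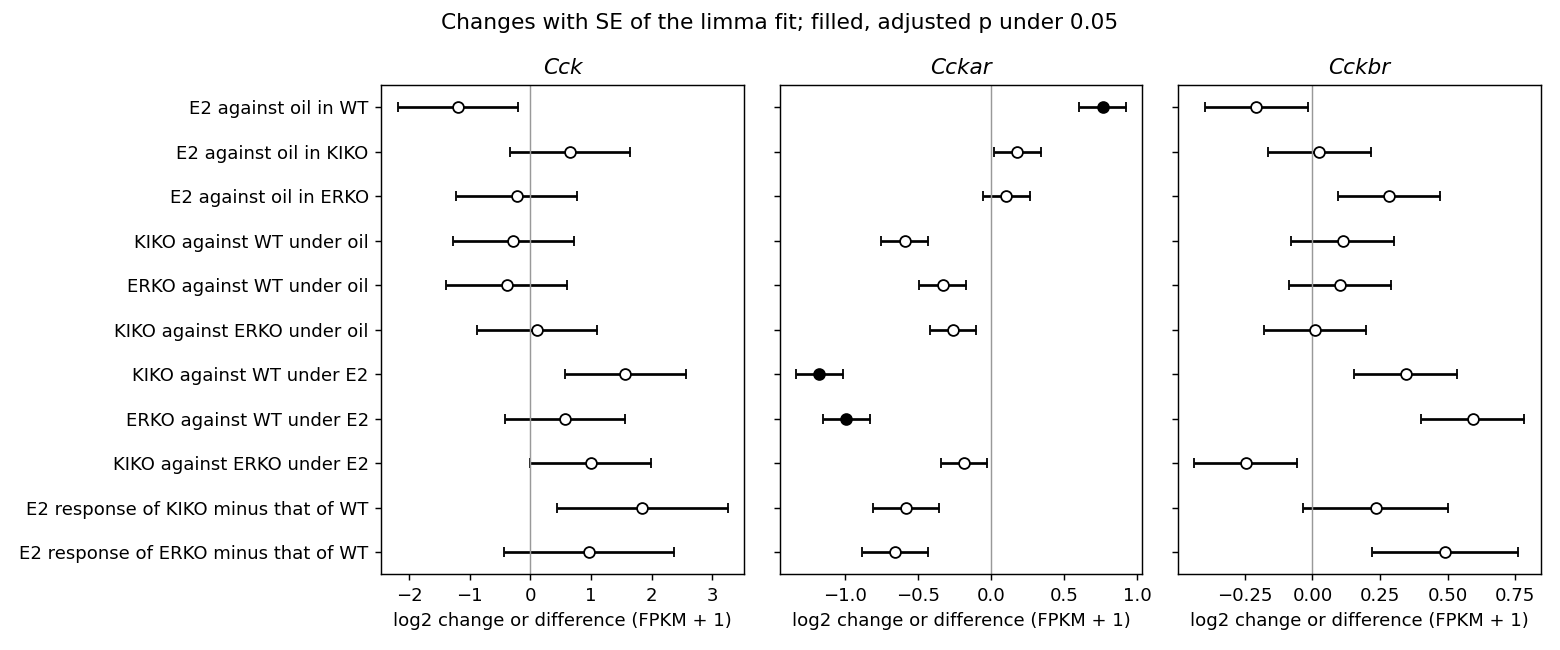
Log2 change or difference of log2(FPKM + 1) with the SE of the limma fit for Cck, Cckar and Cckbr in 11 comparisons; filled points passed an adjusted p of 0.05 and the scale differs between panels. For Cckar, E2 against oil in WT (0.76) and both mutants against WT under E2 (−1.17 and −0.99) are filled; no point is filled for Cck or Cckbr.

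Gastrin, the other ligand of the Cckbr receptor, is encoded by Gast, which stood between 3.17 and 10.7 FPKM, with the highest value in ERKO E2 3. It changed after E2 by 0.0029 ± 0.31 in KIKO, 0.23 ± 0.31 in ERKO and 0.02 ± 0.31 in WT and passed in no comparison.

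The maturation list held the enzymes that turn the Cck precursor into the active peptide, with their regulators, and all 10 genes were tested. Their mean levels ran from 1.92 FPKM for the convertase Pcsk5 to 990 FPKM for Cpe. Cpe, a carboxypeptidase that trims basic residues, was followed by Pcsk1n, an inhibitor of the convertase PC1/3, at 937 FPKM. After E2, 0 of 10 rose and 1 fell in WT, and 0 rose or fell in KIKO and in ERKO. The list medians were −0.05 in KIKO, 0.06 in ERKO and 0.03 in WT, beside 0.0090, −0.03 and 0.01 for all tested genes. The gene that fell was Pcsk1, which encodes PC1/3, a convertase that cuts the precursor at basic residues. It stood at 17.1, 18.9 and 26.6 FPKM in WT E2 and at 32.1, 43.7 and 59.3 FPKM in WT oil, without overlap, as was so for 6.45% of tested genes in this direction (0.183% were called lower). Its change of −1.06 ± 0.23 (limma adjusted p = 0.0377) was lost as a call in 8 of 14 alternatives, among them the fits without WT E2 1, WT E2 2, WT oil 2 or WT oil 3. In KIKO, Pcsk1 stood at 29.6, 29.4 and 21.6 FPKM after E2 and at 37.7, 42.8 and 46.7 FPKM after oil, also without overlap (2.86% of genes in this direction), with a change of −0.65 that did not pass. The tyrosine sulfotransferases, needed for binding to the Cckar receptor, averaged 23.2 FPKM for Tpst1 and 14.0 FPKM for Tpst2 and passed in no comparison.

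Peptidases that can degrade cholecystokinin numbered 5, of which 4 were tested. Tpp2, a tripeptidyl peptidase that inactivates the peptide, averaged 12.1 FPKM and Ace 8.91 FPKM. Mme, at a mean of 0.353 FPKM, was below the filter and was not tested. Mme stood at 0.641 to 1.21 FPKM in WT E2 and at 0.257 to 0.374 FPKM in WT oil. In the mutants Mme reached at most 0.317 FPKM. None of the 4 tested genes passed in any of the 11 comparisons, in which 0.0% to 1.43% of all tested genes passed. In E2 against oil their medians were 0.17 in KIKO, −0.10 in ERKO and −0.06 in WT.

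Of 21 genes of the Gq pathway and of receptor desensitization, 20 were listed and 19 tested. Adrbk1, a kinase that desensitizes receptors, averaged 72.0 FPKM and Rgs4, a brake on G protein signalling, 60.1 FPKM. None passed after E2 in any genotype, where 0.00677% of all tested genes passed in KIKO, 0.0% in ERKO and 0.785% in WT, with medians of 0.07 in KIKO, −0.17 in ERKO and −0.00068 in WT. The ERKO medians of all 3 lists include ERKO E2 3 and were not computed without it. Some Gq genes spread widely within ERKO E2, such as Plcb4, at 2.02 to 13.6 FPKM. The single gene past the threshold was Prkce, a protein kinase C isoform, which was lower in ERKO E2 than in WT E2. It stood at 25.9, 31.2 and 24.5 FPKM in ERKO E2 and at 35.7, 39.8 and 37.0 FPKM in WT E2 (−0.45 ± 0.11, limma adjusted p = 0.0479), in a comparison where 1.3% of all tested genes passed and 1.03% passed as lower. The change was −0.39 without ERKO E2 3. That call was lost in 9 of 13 alternatives, among them quantile normalization, upper-quartile scaling and the fits without ERKO E2 1 or any WT E2 library (adjusted p up to 0.841 over the alternatives). In WT oil Prkce stood at 22.8, 29.7 and 28.5 FPKM. All WT E2 libraries were above these, as was so for 9.37% of tested genes. The E2 change of Prkce in WT, 0.47, did not pass (limma adjusted p = 0.0553).

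**Figure D5:**
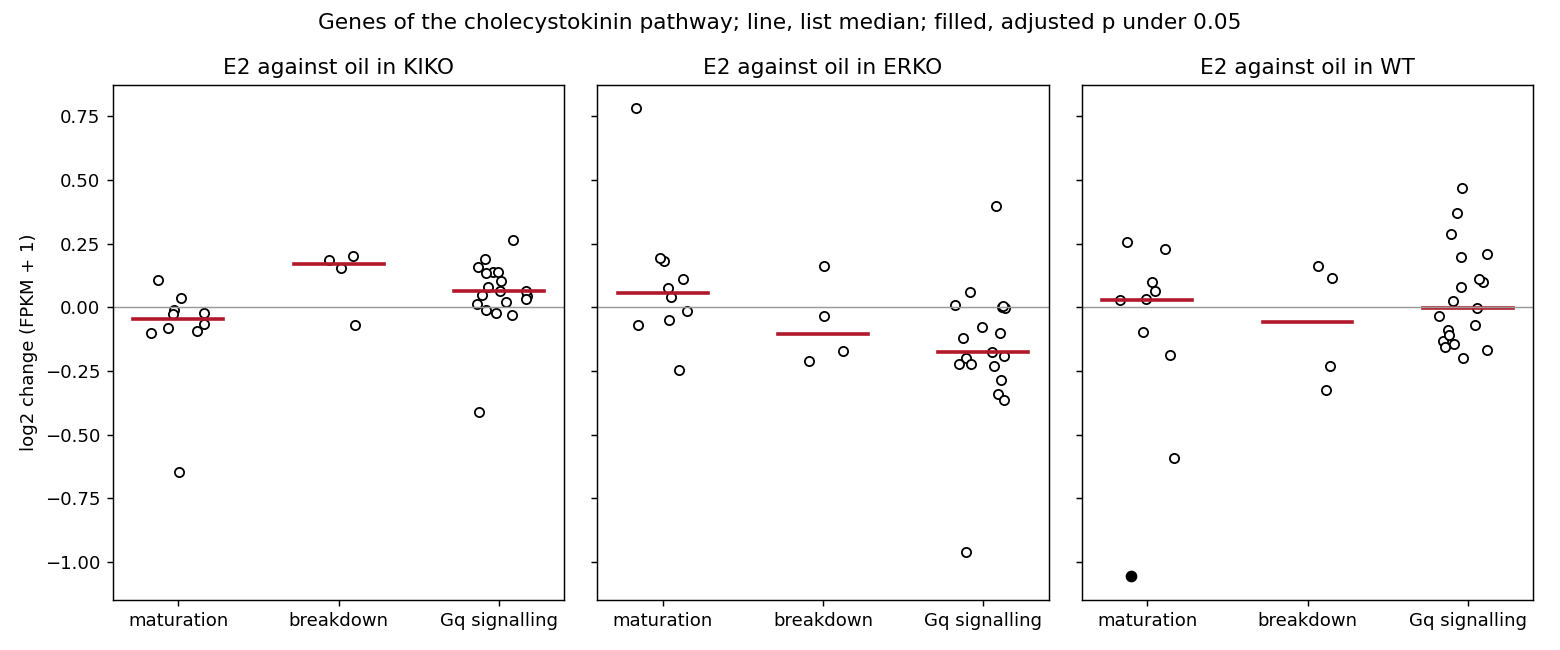
Log2 change of log2(FPKM + 1) after E2 against oil in KIKO, ERKO and WT for the tested genes of 3 lists: maturation (10 genes), breakdown (4) and Gq signalling (19); red lines are list medians and filled points passed an adjusted p of 0.05. The only filled point is Pcsk1 in WT, at −1.06.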

How the data were processed

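For each of the 18 libraries the authors deposited gene levels in FPKM, together with confidence bounds of each FPKM value. Per the submitters' processing notes, TopHat2 2.0 and Cuffdiff were used with the genome build mm10; the annotation is not given in the sources used here. Of 20428 symbols on the same chromosome, 4.83% started within 1000 bases of the GRCm38 RefSeq start, so positions from the tables are not printed.

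Entries sharing a symbol were summed (23699 entries, 23235 symbols). Tests covered the 14774 genes that averaged 0.5 FPKM or more over the 18 libraries, small RNA genes being left out. limma 3.58.1 (R 4.3.3, moderated variances with trend, robust) was fitted to log2(FPKM + 1) of 18 libraries and 6 group means, with 12 residual degrees of freedom, two-sided; the added 1 makes changes of low genes smaller. Fragment numbers came from (2 × FPKM / (upper bound − FPKM)) squared. The fit was checked on simulated data. Python 3.11.15, pandas 2.3.3 and matplotlib 3.10.9 were used. The genes, lists, markers and rules were chosen with earlier results of these data known. Genes named by rule were the 3 members, Esr1, list genes past the threshold, the 2 most abundant per list and the 4 most correlated with each member; Gast, Pcsk5, Tpst1, Tpst2, Mme and single marker genes (Agrp, Pomc, Kiss1, Avp, Cga, Tshb, Prl, Gh) were added after their values were seen.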

Additional observations from a re-analysis of the deposited data

How the results depend on the processing

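The 33 results of Cck, Cckar and Cckbr were recomputed with 7 other settings (pseudocount 0.1, no filter on low values, quantile normalization, upper-quartile scaling, no trend or robust variance, only the groups compared, replicate block) and without each library of the groups compared, or ERKO E2 3, in turn. Of 486 values, 455 kept their direction and side of the threshold. The Cckar rise in WT was no longer past the threshold with a pseudocount of 0.1 (0.87, limma adjusted p = 0.0603), quantile normalization (0.76, 0.0830) and the replicate block (0.76, 0.0537), and ran from 0.70 to 0.80 over the fits without 1 library. Cckar in ERKO against WT under E2 was −0.99 with only the groups compared (adjusted p = 0.236).

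Some small changes that had not passed turned sign. Over the fits without 1 library, Cck ran from −1.03 to 0.18 for E2 in ERKO, from −1.49 to 0.35 for KIKO and from −1.60 to 0.40 for ERKO against WT under oil, from −0.69 to 0.54 for KIKO against ERKO under oil, and from −0.11 to 1.70 for ERKO against WT under E2. Cckbr ran from −0.15 to 0.16 for E2 in KIKO, from −0.026 to 0.19 for KIKO and from −0.036 to 0.18 for ERKO against WT under oil, and from −0.039 to 0.078 for KIKO against ERKO under oil, where upper-quartile scaling gave −0.0099. The causes were not tested. The scalings moved the median of all genes by less than 0.1 in every comparison.

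Same-numbered libraries had deviations from their group means correlated from −0.31 to 0.53, above 0.1 in 8 of 27 pairs. Libraries with different numbers were not compared in this way, so these values cannot decide whether replicate numbers pair the libraries. The replicate block changed no other call of the 3 genes. Numbers of genes past the threshold ranged widely over the alternatives: from 71 to 397 for E2 in WT (116 as reported), 0 to 3 in KIKO (1) and 0 to 1 in ERKO (0); under oil from 0 to 268 for KIKO (2) and 1 to 3319 for ERKO (212) against WT; under E2 from 55 to 596 (140) and 13 to 1286 (192); for KIKO against ERKO from 0 to 3 under E2 (2) and 0 to 1 under oil (0); and from 7 to 42 (20) and 18 to 104 (41) for the KIKO and ERKO response differences. For E2 in WT and for both mutants against WT, the highest number came without ERKO E2 3.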
